A study of Acomys cahirinus and Mus musculus with 10 samples.

Results

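The 50 genes described here drive DNA replication in S phase and the separation of chromosomes in mitosis, and they were followed over the first 20 days after an ear punch in the spiny mouse *A. cahirinus* and in *M. musculus*. They were taken by symbol from a list of 50 mouse genes, and the rule uses no measured value, although the list was chosen with earlier results of these data known. Each was found in both species, as 1 of 22346 *M. musculus* gene numbers and 1 of 640585 *A. cahirinus* assembly components that had a value on all 4 later days. By role the list held 11 genes of origin licensing and the replicative helicase, 8 of DNA synthesis and nucleotide supply, 5 of cyclin E and cell-cycle transcription factors, 7 mitotic cyclins and kinases, 6 of the spindle checkpoint and anaphase, 8 of the spindle, kinetochore and chromosomes, and 5 of cytokinesis.

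The study compared a species that regrows the punched ear with one that scars. Adult female animals, which in *M. musculus* were outbred CD1, had a 4-mm hole punched in the ear. Their RNA came from the tissue bordering the hole, out to about 1 mm, with 3 animals per species in each group: uninjured (D0) and D5, D10, D15 and D20 after the punch. The later groups are labelled regenerating in *A. cahirinus* and fibrotic in *M. musculus*, and the labels name no transgene or drug. Total RNA was sequenced, so the values are sums over every cell in the ring, and a larger share of dividing cells and more of a transcript per dividing cell cannot be told apart.

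Replication origins are licensed in G1, when CDC6 and CDT1 load the MCM helicase. Cyclin E with its kinase opens S phase, and the E2F factors switch on many of the enzymes that copy DNA. Later, B-MYB (*Mybl2*) and FOXM1 turn on the genes of G2 and mitosis, among them cyclin B, the polo and Aurora kinases and the spindle checkpoint, which holds anaphase until every kinetochore is attached. Most of these transcripts are made mainly in cycling cells, and they are widely read together as a proliferation signature.

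The members were matched between species through their transcripts, and coding stretches of 5 genes are shown as examples. Each stretch was the first found that stayed within a limit of differing bases, so its closeness was part of the choice. The identity of the *A. cahirinus* contig to the mouse transcript ranged from 83.5% (*Mki67*) to 94.0% (*Mcm6*) over the 50 genes. *Ccnb1* (cyclin B1) and *Ccne1* (cyclin E1) are shown as genes with large changes in both species, *Ttk* as one of several genes with calls in opposite directions between the species, and *Gins2* and *Tpx2* as those whose *A. cahirinus* values ran against the rest. Each stretch of 60 bases lies within 1 coding exon, reads 5′ to 3′ in the sense of the gene, and carries in capitals the bases that differ between the species. Mouse coordinates are those of GRCm38 (mm10).
The *Ccnb1* pair lies in exon 2 at chr13:100785844-100785903 on the minus strand, with 5 differing bases.
*Ccnb1* in *M. musculus*: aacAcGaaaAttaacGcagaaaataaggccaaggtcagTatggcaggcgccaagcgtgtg
*Ccnb1* in *A. cahirinus*: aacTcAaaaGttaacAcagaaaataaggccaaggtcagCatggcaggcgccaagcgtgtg
The *Ccne1* pair lies in exon 3 at chr7:38106624-38106683 on the minus strand, with 8 differing bases.
*Ccne1* in *M. musculus*: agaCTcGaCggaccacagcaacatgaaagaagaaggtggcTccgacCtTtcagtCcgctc
*Ccne1* in *A. cahirinus*: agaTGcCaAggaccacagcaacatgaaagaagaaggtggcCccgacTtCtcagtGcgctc
The *Ttk* pair lies in exon 14 at chr9:83857318-83857377 on the plus strand, with 4 differing bases.
*Ttk* in *M. musculus*: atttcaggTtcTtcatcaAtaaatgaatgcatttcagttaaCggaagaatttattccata
*Ttk* in *A. cahirinus*: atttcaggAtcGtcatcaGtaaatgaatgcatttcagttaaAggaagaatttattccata
The *Gins2* pair lies in exon 1 at chr8:120588956-120589015 on the minus strand, with 4 differing bases.
*Gins2* in *M. musculus*: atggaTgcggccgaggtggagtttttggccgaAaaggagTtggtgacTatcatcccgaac
*Gins2* in *A. cahirinus*: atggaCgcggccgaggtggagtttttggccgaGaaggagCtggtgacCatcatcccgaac
The *Tpx2* pair lies in exon 4 at chr2:152869653-152869712 on the plus strand, with 10 differing bases.
*Tpx2* in *M. musculus*: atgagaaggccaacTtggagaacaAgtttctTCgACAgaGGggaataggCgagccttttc
*Tpx2* in *A. cahirinus*: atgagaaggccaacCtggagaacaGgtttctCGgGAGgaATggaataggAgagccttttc
Over the whole aligned part the identity was 89.5% of 1450 bases for *Ccnb1*, 92.4% of 1478 for *Ccne1*, 89.5% of 1161 for *Ttk*, 92.0% of 561 for *Gins2* and 88.4% of 1215 for *Tpx2*.

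The deposited tables give fold changes of pooled groups, from which group means and, for many genes, the reads of single libraries were recovered. Summed over all features, the group means came to 14454800 to 18203600 normalised reads in *A. cahirinus* against 7330080 to 9409080 in *M. musculus*. Each sum is on the scale of its own comparison. A gene of equal share thus has fewer normalised reads in *M. musculus*. Values below are normalised reads, put on the scale of the D0 group of the same species. Apart from those given per kilobase, they compare levels within a gene and a species only. The median D0 level of the members was 130 for *A. cahirinus* and 119 for *M. musculus*, and all 50 lay above 10 in both. A gene is called where the posterior probability of a change from EBSeq in the deposited table is at least 0.95, and all fold changes are later day over D0 on the log2 scale. Reads per library were recovered for all 50 members at D0, for 32, 33, 50 and 37 of them at D5, D10, D15 and D20 in *A. cahirinus*, and for 26, 25, 27 and 29 in *M. musculus*, with genes of lower counts recovered more often. These were tested with limma beside the posterior probability, at an adjusted p below 0.05 over all recovered features with a mean of at least 10. The libraries are taken as the 3 animals of a group, although no label ties a library to an animal, and the p-values measure the spread between these libraries. The D15 group of *A. cahirinus* held only 2 distinct libraries, 1 of them at double weight in the deposited means, and was tested by limma as 2. Each D15 value of that species rests on them, as do its D15 calls and its counts over all 4 days. The deposited posterior probability was used as given, and it may count the doubled library as a further replicate. The cause of the double weight was not tested.

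Most members rose at D5 in both species, and at D20 most were still called higher in *A. cahirinus* but few in *M. musculus*. In *A. cahirinus*, 47 of 50 were called higher and 1 lower at D5, beside 1.78% and 0.978% of all features in that table and 7.52% and 4.09% of those with a mean of at least 10. Their median log2 fold change was 1.61, 0.78, 0.85 and 0.75 from D5 to D20. In *M. musculus*, 37 were called higher and 2 lower at D5, beside 16.5% and 13.6% of all features (23.8% and 19.4% with a mean of at least 10), and the median was 0.9985, 0.71, 0.60 and 0.04 on the 4 days. Over all features with a mean of at least 10 the median lay between -0.02 and 0.02 in every comparison.

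In both species fewer members were called higher on each later day than at D5. Only in *M. musculus* at D20 did their count lie under the share of all features called higher. A larger share of features was called in *M. musculus*, so each count is to be read against its own species' share. At D10, 33 members were called higher and 2 lower in *A. cahirinus* (all features 1.28% and 0.88%, with a mean of at least 10 5.06% and 3.37%) against 30 and 2 in *M. musculus* (15.1% and 14.1%, with a mean of at least 10 21.3% and 19.6%). At D15 the counts were 34 higher and 1 lower in *A. cahirinus* (1.33% and 1.11%, or 5.13% and 4.11%) against 18 and 2 in *M. musculus* (13.2% and 12.5%, or 18.9% and 17.9%). At D20, 29 were still called higher and 1 lower in *A. cahirinus* (0.948% and 0.9%, or 4.02% and 3.86%), whereas in *M. musculus* 2 were called higher and 9 lower (12.3% and 11.9%, or 17.6% and 17.0% of those with a mean of at least 10). The 9 members called lower there were close to the share of all expressed genes. In all, 28 members were called higher on all 4 days in *A. cahirinus*, beside 0.274% of all its features and 0.98% of those with a mean of at least 10. In *M. musculus* 2 were, *Mcm2* and *Foxm1*, beside 6.62% and 9.01%. The same gene was called higher in both species in 35, 25, 15 and 2 of the 50 on the 4 days, beside 15.8%, 12.1%, 10.1% and 7.08% of the 13763 reciprocal pairs of all genes.

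The highest group mean fell at D5 for 48 members in *A. cahirinus*, with *Gins2* and *Tpx2* highest at D0. In *M. musculus* it fell at D5 for 42, at D10 for 2 (*Rfc4* and *Cenpf*) and at D0 for 6 (*Pola1*, *Tyms*, *E2f1*, *Ttk*, *Nusap1* and *Kif23*). From D5 to D20 the median change was -0.83 in *A. cahirinus*, where all 50 were lower at D20 than at D5, and -0.90 in *M. musculus*, where 48 were lower. Whether these steps down differ was not tested.

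**Figure D1:**
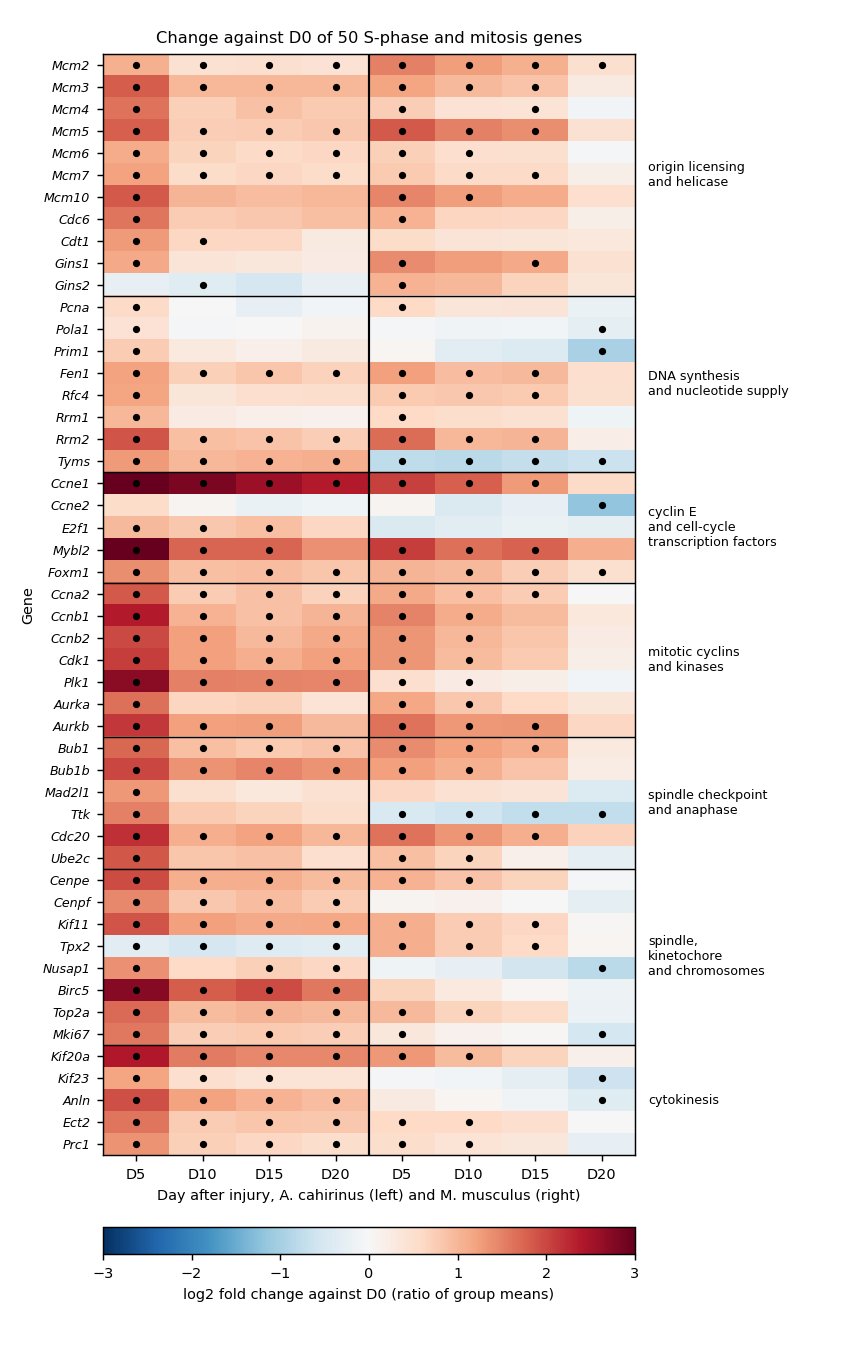
Log2 fold change against D0 (colour, blue lower and red higher) of the 50 genes in rows, grouped by role, at D5, D10, D15 and D20 in *A. cahirinus* (left 4 columns) and *M. musculus* (right 4 columns). Black points mark values called at a posterior probability of at least 0.95: at D5 47 genes are higher on the left and 37 on the right, and at D20 29 and 2.

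The recovered reads were tested with limma, over 136883 to 143161 *A. cahirinus* features against 7595 to 8728 of *M. musculus*. The number of features and their depth differ between the species, so each count is to be read against the share of its own species, not against the other species' count. At D5, 32 of 32 recovered members rose in *A. cahirinus* (18.2% of all features tested rose) and 24 of 26 rose in *M. musculus* with 1 lower (33.8% and 28.7%). At D10 the counts were 29 of 33 higher and 0 lower in *A. cahirinus* (16.4%), and 22 of 25 higher and 1 lower in *M. musculus* (31.9% and 26.2%). At D15 they were 41 of 50 higher and 3 lower (15.5% and 10.6%) against 19 of 27 and 1 (28.3% and 22.4%). At D20, 31 of 37 rose and 0 fell in *A. cahirinus* (14.2%), against 4 higher and 6 lower of 29 in *M. musculus* (28.8% and 23.5%). At an unadjusted p under 0.05, 32, 30, 44 and 32 members passed on the 4 days in *A. cahirinus* in either direction, and 25, 23, 22 and 12 in *M. musculus*. The counts by posterior probability over the same members were 32, 22, 34 and 20 higher in *A. cahirinus*, against 23, 16, 11 and 2 in *M. musculus*. Each recovered member called higher by posterior probability was also higher by limma.

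The ranges of the libraries were also compared without a model, and at D20 in *M. musculus* they put 7 members above D0 where limma called 4 higher. At D5 all libraries lay above D0 for 32 of 32 recovered members in *A. cahirinus* (23.4% of all recovered features above and 22.1% below). For *M. musculus* 24 of 26 lay above and 1 below (37.1% and 31.4%). At D10 the counts were 30 of 33 above (22.6% above, 20.2% below) and, in *M. musculus*, 22 of 25 above and 2 below (37.2% and 29.4%). At D15, with 2 libraries in *A. cahirinus*, 42 of 50 lay above and 4 below there (28.5% and 24.0%), and 18 of 27 above and 3 below in *M. musculus* (34.3% and 27.5%). At D20 the counts were 32 of 37 above (20.2% above, 20.1% below) in *A. cahirinus*, against 7 above and 6 below of 29 in *M. musculus* (34.5% and 27.5%), where both shares lay under those of all features.

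Most genes of origin licensing and the helicase rose in both species at D5. The counts of each role below are by posterior probability unless limma is named. Each is to be read against the share of all features of the same species and day given above, not against the other species' count. Of the 11, 10 were called higher at D5 in each species, beside 7.52% of features with a mean of at least 10 in *A. cahirinus* and 23.8% in *M. musculus*. The medians were 1.28 for *A. cahirinus* and 1.054 for *M. musculus*. At D10 and D15, 6 of 11 were called higher in each, and the medians were 0.67 and 0.63 in *A. cahirinus* against 0.98 and 0.67 in *M. musculus*. The shares of such features on these days were 5.06% and 5.13% in *A. cahirinus*, against 21.3% and 18.9% in *M. musculus*. By limma 8 of 9 and 9 of 11 recovered ones were higher in *A. cahirinus*, and 7 of 7 and 7 of 8 in *M. musculus*. At D20, 5 were called in *A. cahirinus* (median 0.62) and 1, *Mcm2*, in *M. musculus* (0.31).

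*Mcm2*, a subunit of the helicase that unwinds DNA at the fork, had 494, 445 and 451 normalised reads in the 3 D0 libraries of *A. cahirinus*. At D5 these were 1043, 1038 and 820, at D10 611, 641 and 642, at D15 596 and 672, and at D20 653, 652 and 570. No later library overlapped D0, and limma gave log2 fold changes of 1.06 (SE 0.0737, adjusted p = 2.83e-16) at D5 and 0.44 (SE 0.0713, adjusted p = 3.23e-06) at D20. In *M. musculus* the D0 libraries held 87.5, 113 and 135 reads, those of D5 346, 338 and 282, those of D10 252, 240 and 308, those of D15 260, 235 and 206, and those of D20 169, 153 and 149. There too all libraries lay above D0, with 1.57 (SE 0.151, adjusted p = 4.48e-06) at D5 and 0.54 (SE 0.149, adjusted p = 0.0110) at D20. The *A. cahirinus* component of *Mcm2* also aligns over 955 bases to *Mcm4*, so its reads may hold some of both.

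The other helicase subunits were called higher at D5 in both species, from 1.12 (*Mcm6*) to 1.81 (*Mcm3*) in *A. cahirinus* and from 0.72 (*Mcm6*) to 1.84 (*Mcm5*) in *M. musculus*. *Mcm4* moved from 120, 107 and 93.6 reads at D0 to 299, 378 and 307 at D5 and 186, 180 and 185 at D20 in *A. cahirinus*. The *M. musculus* libraries moved from 236, 272 and 290 to 443, 478 and 415, and at D20 the libraries held 241, 253 and 255, within the D0 range. The D20 change by limma was thus 0.78 (SE 0.121) in *A. cahirinus* and -0.08 (SE 0.0950) in *M. musculus*. *Mcm5* had the largest helicase change of *M. musculus*, with group means of 111, 397, 315, 293 and 153 from D0 to D20.

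Of the loading and initiation factors, *Cdc6* rose from 34.1, 35.8 and 34.0 reads to 102, 106 and 111 at D5 in *A. cahirinus*, and from 26.03, 37.6 and 41.5 to 59.3, 75.6 and 83.4 in *M. musculus*. By D20 the *A. cahirinus* libraries stood at 69.6, 60.7 and 64.2, all above D0, and the *M. musculus* libraries at 38.1, 36.8 and 43.6, overlapping it. *Cdt1*, the other loading factor, was called higher at D5 and D10 in *A. cahirinus* (1.28 and 0.61) and on no day in *M. musculus*, where its group means were 88.8, 130, 116, 115 and 110. *Mcm10*, which helps switch the helicase on, rose to 148, 134 and 139 reads at D5 from 45.7, 39.6 and 33.0 in *A. cahirinus*, and to 81.0, 85.3 and 76.5 from 21.9, 36.5 and 29.0 in *M. musculus*. *Gins1*, a subunit of the GINS complex that joins the active helicase, was low throughout: it was called higher at D5 in both species (1.14 and 1.42), and from D10 on its *A. cahirinus* libraries overlapped D0.

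*Gins2*, of the same complex, was the exception among these. In *A. cahirinus* its group means were 160, 135, 124, 112 and 134 from D0 to D20, it was called lower at D10 (-0.37), and at D15 the 2 libraries (109 and 114 reads) lay below the 3 of D0 (173, 153 and 155). Its *M. musculus* reads rose from 26.03, 27.1 and 31.8 reads to 53.7, 73.8 and 48.0 at D5, with 1.04 by limma (SE 0.237, adjusted p = 0.00243). The difference between species at D15 was -1.21 (SE 0.282, adjusted p = 0.00675). Its component aligned to the mouse transcript over 561 bases, printed in part above, and no second mouse gene was found on it among hits to mouse transcripts.

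The genes of DNA synthesis and nucleotide supply had the smallest median changes of the 7 roles in *A. cahirinus*. There all 8 were called higher at D5 (median 1.096) and 3 on each later day (medians 0.33, 0.33 and 0.39). In *M. musculus* 5 were called higher and 1 lower at D5 (median 0.60), 3 and 1 at D10 and D15 (0.45 and 0.42), and 0 and 3 at D20 (-0.17). Of its features with a mean of at least 10, 19.4%, 19.6%, 17.9% and 17.0% were called lower on the 4 days. The 1 lower at D5, D10 and D15 lay under these shares.

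*Rrm2*, the S-phase subunit of ribonucleotide reductase, which makes deoxynucleotides, showed the largest rise of the role in both species. Its *A. cahirinus* libraries held 292, 281 and 260 reads at D0, 1026, 1122 and 946 at D5, 491, 546 and 525 at D10 and 454 and 531 at D15, and its D20 mean was 461. The group means in *M. musculus* were 109, 348, 218, 220 and 126. *Rrm1*, the partner subunit, was called higher at D5 only, with 1.004 in *A. cahirinus* and 0.60 in *M. musculus*. *Pcna*, the sliding clamp of the DNA polymerases, held 538, 513 and 530 reads at D0 in *A. cahirinus*, a mean of 787 at D5 and libraries of 492, 542 and 530 at D10, which overlapped D0. At D15 both *A. cahirinus* libraries of *Pcna* (431 and 452) lay below D0, with -0.26 by limma (SE 0.0868, adjusted p = 0.0241) and no call by posterior probability. In *M. musculus* *Pcna* rose from 330, 365 and 372 to 518, 547 and 540 at D5 and still held 462, 466 and 452 at D10, where the difference between species was -0.40 (SE 0.0980, adjusted p = 0.00464). The group means of *Pcna* from D0 to D20 were 527, 787, 521, 445 and 494.5 in *A. cahirinus*, and 355.5, 535, 460.1, 463 and 310.3 in the other species. Divided by the length of the longest transcript, *Pcna* had the most reads per kilobase of the 50 at D5 in *M. musculus*, with 424. Such an order between genes is rough, since it rests on that length alone.

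In *M. musculus* 3 genes of this role, *Prim1*, *Pola1* and *Tyms*, were called lower at D20. *Prim1*, which makes the RNA primers, held 128, 107 and 121 reads at D0 and 162, 232 and 206 at D5 in *A. cahirinus*, and 144, 153 and 130 at D20. The *M. musculus* libraries held 110, 106 and 153 at D0, 125, 148 and 110 at D5 and 58.6, 61.8 and 67.0 at D20, so that every D20 library lay under every D0 library (-0.95 by limma, SE 0.164, adjusted p = 7.55e-04). *Pola1*, the catalytic subunit of DNA polymerase alpha, was called higher at D5 in *A. cahirinus* (0.44) and lower at D20 in *M. musculus* (-0.29). *Tyms*, which makes thymidylate, was called higher on all 4 days in *A. cahirinus*, from 75.6, 96.9 and 66.6 reads at D0 to 177, 208 and 196 at D5 and 149, 183 and 174 at D20. The *M. musculus* gene was called lower on all 4 days, with group means of 1289, 760, 733, 789 and 819, and D0 libraries of 1147, 1387 and 1333. By the same rough measure it was the highest member in the uninjured *M. musculus* ear, at 328 reads per kilobase. Of its 31-base words 14.8% also occur in other genes, mostly the pseudogene *Tyms-ps*, so its reads are uncertain. *Fen1*, the flap endonuclease of Okazaki fragments, rose in both, by 1.22 (SE 0.111) and 1.25 (SE 0.147) at D5, with a difference of -0.03 (SE 0.176, adjusted p = 0.919 by limma). *Rfc4*, a subunit of the clamp loader, was called higher at D5 in *A. cahirinus* (1.19) and at D5, D10 and D15 in *M. musculus* (0.79, 0.81 and 0.77), where 11.1% of its 31-base words lie opposite *Eif4a2*.

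*Ccne1* and *Mybl2* had the largest D5 changes of the 50 genes in both species. In *A. cahirinus*, 4 of 5 genes of this role were called higher at D5, D10 and D15 and 2 at D20. In *M. musculus* the count was 3 on the first 3 days, with 1 higher and 1 lower at D20. Of its features with a mean of at least 10, 17.6% were called higher and 17.0% lower at D20. Both D20 counts were near these shares.

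*Ccne1* held 16.6, 22.6 and 12.8 reads in the D0 libraries of *A. cahirinus*, 141, 179 and 160 at D5, 112, 125 and 129 at D10, 106 and 101 at D15, and 91.2, 85.0 and 94.1 at D20. Its *M. musculus* libraries held 12.6, 15.3 and 22.1 at D0, 52.9, 77.4 and 75.4 at D5, 54.3, 55.3 and 62.9 at D10, 48.1, 45.5 and 26.6 at D15, and 28.2, 20.3 and 25.5 at D20. No later library overlapped D0 in *A. cahirinus*, and in *M. musculus* only those of D20 did. By limma the changes were 3.19 (SE 0.222) at D5 and 2.37 (SE 0.223, adjusted p = 2.02e-12) at D20 in *A. cahirinus*, and 2.03 (SE 0.307) and 0.60 (SE 0.296, adjusted p = 0.110) in *M. musculus*. *Ccne1* and *Ttk* were the members whose difference between species passed on all 4 days. For *Ccne1* it was 1.16 (SE 0.390, adjusted p = 0.0213) at D5, 0.99 (SE 0.333, adjusted p = 0.0293) at D10, 1.26 (SE 0.425, adjusted p = 0.0408) at D15 and 1.77 (SE 0.363, adjusted p = 0.00133) at D20.

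*Ccne2*, the second cyclin E gene, had no such change. Its group means were 77.1, 114, 81.3, 67.1 and 70.9 in *A. cahirinus*, with no call on any day, and 93.1, 99.1, 68.9, 78.7 and 40.7 in *M. musculus*, where it was called lower at D20. The 3 D20 libraries there held 40.9, 39.3 and 42.0 reads against 65.8, 97.0 and 116 at D0 (-1.12 by limma, SE 0.222, adjusted p = 0.00179). In the mouse annotation 52.2% of its 31-base words lie opposite *Ints8*.

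*Mybl2* held 24.1, 24.5 and 23.4 reads at D0 in *A. cahirinus* and 193, 210 and 171 at D5, then 88.0, 70.2 and 83.8 at D10, 75.7 and 82.6 at D15, and 56.4, 68.4 and 61.3 at D20. Its *M. musculus* libraries held 18.7, 31.8 and 35.9 at D0, 117, 115 and 129 at D5, 90.1, 89.4 and 90.7 at D10, 122, 85.3 and 89.0 at D15, and 65.6, 62.6 and 56.4 at D20. All later libraries lay above D0 in both species, and it was among the 4 recovered members that were still higher by limma at D20 in *M. musculus* (1.18, SE 0.239, adjusted p = 0.00203), the others being *Mcm2*, *Fen1* and *Foxm1*. The posterior probability made no call for it at D20 in either species. *Foxm1* was called higher on every day in both species, from 231, 222 and 201 to 549, 607 and 557 reads at D5 in *A. cahirinus* and from 106, 125 and 77.4 to 220, 199 and 204 in *M. musculus*, where D20 held 140, 138 and 154. Its group means from D0 to D20 were 218, 571, 406, 412.5 and 391 in the former and 103, 207.5, 203, 172 and 144 in the latter. *E2f1*, an activator of S-phase genes, was called higher at D5, D10 and D15 in *A. cahirinus* (0.98, 0.81 and 0.90), with group means of 84.8, 167, 149, 158 and 131. In *M. musculus* its means were 128, 94.8, 103, 111 and 104, and no day was called.

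**Figure D2:**
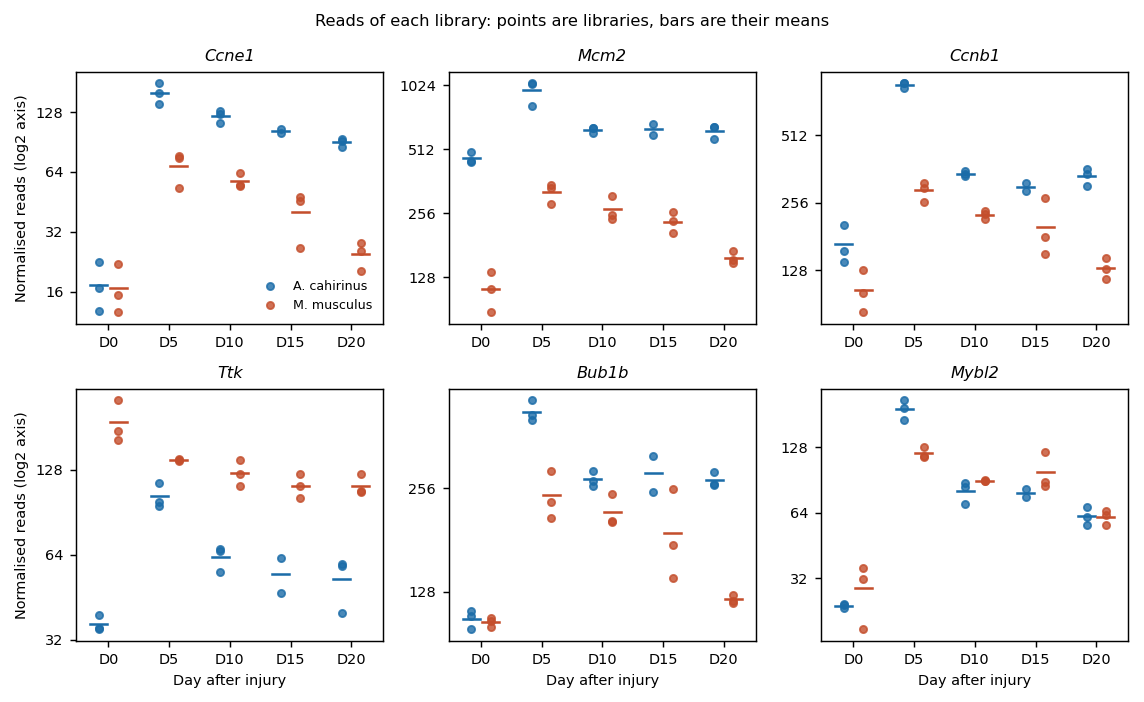
Normalised reads of single libraries (points; short bars are their means; log2 axis) by day for *Ccne1*, *Mcm2*, *Ccnb1*, *Ttk*, *Bub1b* and *Mybl2*, in *A. cahirinus* (blue) and *M. musculus* (red), with 3 libraries a group and 2 at D15 in *A. cahirinus*. *Ccne1* stayed between 85.0 and 179 reads after injury in *A. cahirinus* and came down to 20.3 to 28.2 at D20 in *M. musculus*, and *Ttk* lay above D0 in *A. cahirinus* and below D0 in *M. musculus*.

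The mitotic cyclins and kinases all rose at D5, when they had the highest role median in both species. All 7 were called higher at D5 in each, and the medians were 2.07 for *A. cahirinus* and 1.32 for *M. musculus*. In *A. cahirinus* 6, 6 and 5 were called on the later days (medians 1.22, 0.97 and 1.01). In *M. musculus* all 7 were called at D10, then 2 and 0 (medians 0.96, 0.79 and 0.24). Of its features with a mean of at least 10, 18.9% and 17.6% were called higher at D15 and D20. By limma at D20, 0 of 5 recovered ones rose in *M. musculus*, where 28.8% of all features did, and 6 of 6 rose in *A. cahirinus*, where 14.2% did.

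*Ccnb1*, cyclin B1, which brings cells into mitosis with CDK1, held 204, 140 and 156 reads at D0 in *A. cahirinus* and 873, 872 and 835 at D5. It then held 344, 337 and 355 at D10, 288 and 313 at D15 and 343, 361 and 302 at D20, with no overlap with D0. In *M. musculus* the libraries held 101, 128 and 82.9 at D0, 299, 315 and 257 at D5, 216, 228 and 235 at D10, 270, 179 and 150 at D15 and 145, 117 and 129 at D20, where they overlapped D0. The change by limma was 2.38 (SE 0.0951) against 1.49 (SE 0.150) at D5, and 1.02 (SE 0.109) against 0.33 (SE 0.160) at D20. *Ccnb2* and *Cdk1*, its sister cyclin and its kinase, had like courses. *Ccnb2* went from 108, 122 and 102 to 425, 445 and 442 at D5 and 222, 241 and 261 at D20 in *A. cahirinus*, and from 48.9, 84.7 and 56.7 to 165, 155 and 159 and then 78.3, 72.7 and 73.4 in *M. musculus*. The group means of *Cdk1* from D0 to D20 were 107, 448.5, 252.5, 228 and 249.9 in *A. cahirinus*, and 89.8, 224, 175, 155 and 101 in the other species. *Cdk1* went from 113, 113 and 94.6 to 450, 483 and 412 and then 257, 251 and 242 in *A. cahirinus*, and from 85.4, 101 and 82.9 to 198, 241 and 234 and then 92.8, 113 and 96.8 in *M. musculus*. For these 3 genes the difference between species passed at D5 and D20 and not at D15.

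*Ccna2*, cyclin A2 of S phase and G2, had group means of 188, 676, 320, 348 and 304 in *A. cahirinus* against 178, 394, 334, 301 and 181 in *M. musculus*, so that the D20 mean lay near D0 in the latter only. *Aurkb*, the kinase of the chromosomal passenger complex, rose from 37.9, 40.9 and 36.3 to 166, 185 and 148 at D5 in *A. cahirinus* and from 29.2, 55.3 and 31.8 to 132, 126 and 105 in *M. musculus*. *Aurka*, the centrosomal Aurora kinase, was called by posterior probability at D5 only in *A. cahirinus* (1.66) and at D5 and D10 in *M. musculus* (1.16 and 0.81). By limma it was also higher at D15 and D20 in *A. cahirinus*, as were all 7 and all 6 recovered members of the role. Its D20 libraries there held 79.3, 73.1 and 63.6 reads against 48.3, 61.5 and 51.6 at D0. *Plk1*, the polo kinase, showed the largest rise of the role in *A. cahirinus*, from 67.3, 75.5 and 71.2 reads to 456, 490 and 450 at D5 and 199, 200 and 193 at D20. In *M. musculus* its means were 336, 475, 399, 378 and 319, and its gene number there also holds transcripts of *Dctn5*. With both *A. cahirinus* components of *Plk1* summed, its D5 change was 1.65 in place of 2.71, and its D20 change 0.70 in place of 1.47.

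Most spindle checkpoint and anaphase genes rose at D5 too, and 1 gene was called in opposite directions. By posterior probability all 6 were called higher at D5 in *A. cahirinus* (median 1.79) and 3 on each later day (0.86, 0.83 and 0.69). In *M. musculus* 4, 4, 2 and 0 were called higher and 1, *Ttk*, lower on each day, with medians of 1.06, 0.87, 0.62 and -0.03. The 1 lower was near the share of its features with a mean of at least 10, 17.0% to 19.6% over the 4 days. By limma 4 of 4, 5 of 6 and 6 of 6 recovered ones were higher at D10, D15 and D20 in *A. cahirinus*. In *M. musculus* 3 of 4, 2 of 5 and 0 of 4 were higher by limma on those days, and 1, 1 and 2 lower.

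*Ttk*, the kinase (MPS1) at the head of the checkpoint, held 39.0, 34.9 and 35.1 reads at D0 in *A. cahirinus*, 98.4, 115 and 95.5 at D5, 67.3, 55.7 and 66.1 at D10, 46.9 and 62.6 at D15, and 59.2, 58.5 and 39.9 at D20. The *M. musculus* libraries held 176, 226 and 163 at D0, 137, 140 and 138 at D5, 124, 139 and 113 at D10, 124, 112 and 102 at D15, and 108, 124 and 106 at D20. Every later library was above D0 in *A. cahirinus* and below D0 in *M. musculus*, though the lowest D20 library of *A. cahirinus* (39.9) barely passed the highest of D0 (39.0). By posterior probability *Ttk* was called higher in *A. cahirinus* at D5 only and lower in *M. musculus* on all 4 days. The change at D5 was 1.49 (SE 0.173) and -0.44 (SE 0.129), and the difference between species was 1.93 (SE 0.213, adjusted p = 8.56e-07) at D5, 1.36 (SE 0.224) at D10, 1.31 (SE 0.260) at D15 and 1.27 (SE 0.2504) at D20. No 31-base word of its mouse transcripts was shared with another gene. Leaving out D0 library 2 of *M. musculus*, the highest of the group, ended the limma call for *Ttk* at D5 there.

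*Bub1* and *Bub1b*, the checkpoint kinase and its partner BUBR1, rose in both species and stayed up in *A. cahirinus*. *Bub1b* held 99.7, 109 and 113 reads at D0 in *A. cahirinus*, 403, 461 and 416 at D5, 268, 260 and 287 at D10, 249 and 318 at D15, and 286, 264 and 261 at D20. The *M. musculus* libraries held 107, 101 and 105 at D0, 287, 210 and 234 at D5, 206, 204 and 246 at D10, 254, 174 and 140 at D15, and 126, 119 and 120 at D20. The D20 libraries lay above D0 in both species, by 1.35 (SE 0.113, adjusted p = 4.48e-14) and by 0.22 (SE 0.110, adjusted p = 0.123). For *Bub1* the D20 libraries held 280, 245 and 257 reads against 156, 142 and 134 at D0 in *A. cahirinus*, and 59.3, 47.7 and 61.7 against 47.9, 47.1 and 42.8 in *M. musculus*.

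*Mad2l1*, which encodes the checkpoint protein MAD2, rose to 285, 267 and 257 reads at D5 from 125, 107 and 96.7 in *A. cahirinus*. In *M. musculus* it rose by limma from 78.0, 94.1 and 77.4 to 122, 140 and 123 at D5 and fell to 55.0, 63.3 and 70.2 at D20 (-0.43, SE 0.155, adjusted p = 0.0384), without a call by posterior probability on any day. *Cdc20*, the activator of the anaphase-promoting complex, had group means of 98.9, 448, 210, 229 and 196 in *A. cahirinus* against 102, 316, 257, 217 and 164 in *M. musculus*. *Ube2c*, the ubiquitin-conjugating enzyme of that complex, was called by posterior probability at D5 only in *A. cahirinus* (1.87) and at D5 and D10 in *M. musculus* (0.91 and 0.67). By limma it was also higher at D10 and D20 in *A. cahirinus*, while its *M. musculus* reads were recovered on no later day but D15.

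Most spindle, kinetochore and chromosome genes were called higher on each day in *A. cahirinus*, beside 4.02% to 7.52% of its features with a mean of at least 10. In *A. cahirinus* 7 of 8 were called higher at D5, D15 and D20 and 6 at D10, and *Tpx2* was called lower on each day. In *M. musculus* 5, 4, 2 and 0 were called higher, and 2, *Nusap1* and *Mki67*, were called lower at D20. Of its features with a mean of at least 10, 23.8%, 21.3%, 18.9% and 17.6% were called higher on the 4 days, and 17.0% lower at D20. The 2 higher at D15 and the 2 lower at D20 were near those shares. The medians of the role were 1.65, 0.88, 0.97 and 0.86 in *A. cahirinus* against 0.83, 0.48, 0.31 and -0.17 in *M. musculus*.

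*Mki67*, the Ki-67 protein of the chromosome surface and the usual stain for cycling cells, had group means of 1375, 4145, 2287, 2362 and 2298 in *A. cahirinus*. In *M. musculus* they were 2208, 2775, 2401, 2277 and 1520, with a call at D5 (0.33) and a lower call at D20 (-0.54). *Top2a*, the topoisomerase that untangles sister chromatids, held 436, 405 and 372 reads at D0 and 827, 768 and 787 at D20 in *A. cahirinus*. Its *M. musculus* libraries held 707, 902 and 677 at D0 and 649, 685 and 681 at D20, overlapping D0, after a D5 mean of 1506. The group means of *Top2a* from D0 to D20 were 404, 1318, 775, 821 and 794 in the former and 762, 1506, 1211, 1117 and 671.5 in the latter. *Cenpe*, the kinetochore motor, went from 375, 324 and 280 at D0 to 630, 645 and 629 at D20 in *A. cahirinus*, and from 181, 214 and 189 to 184, 199 and 190 in *M. musculus*. *Cenpf*, a large kinetochore protein, was called on every day in *A. cahirinus* (1.44, 0.82, 0.93 and 0.76), whereas its *M. musculus* means were 561, 596, 618, 557 and 454 with no call.

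*Kif11*, the motor that pushes spindle poles apart, was called on every day in *A. cahirinus*, from 249, 220 and 178 reads at D0 to 857, 846 and 707 at D5 and 490, 488 and 469 at D20. Its means in *M. musculus* were 182, 385, 307, 281 and 187, with calls at D5, D10 and D15. *Nusap1*, which bundles spindle microtubules, had means of 119, 310, 181, 196 and 184 in *A. cahirinus* against 170, 156, 144, 116 and 97.1 in *M. musculus*. Its 3 D20 libraries in *M. musculus* (91.7, 105 and 94.1) lay below those of D0 (156, 206 and 147), with -0.80 by limma (SE 0.143, adjusted p = 9.85e-04).

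The *A. cahirinus* values of *Birc5* (survivin, of the passenger complex) depended on the component chosen. *Birc5* rose there from 29.9, 33.0 and 29.8 reads at D0 to 210, 207 and 199 at D5 and 97.8, 81.7 and 98.4 at D20, while its *M. musculus* means were 117, 188, 144, 123 and 105 with no call. As many as 20 components had *Birc5* as their best hit, and with them summed the *A. cahirinus* change was 0.03 at D5 and -0.01 at D20. *Tpx2*, a spindle assembly factor, had D0 libraries of 2086, 2165 and 2162 reads in *A. cahirinus*, and means of 1680, 1509, 1625 and 1676 on the later days. In *M. musculus* it was called higher at D5, D10 and D15 (1.09, 0.76 and 0.60). The aligned part of the *Tpx2* component covers 1215 bases, no second mouse gene was found on it, and with all its components summed the change was -0.34 at D5 and -0.35 at D20, close to the -0.35 of the top component on both days. Only hits to mouse transcripts were searched. Before any division by length, its D0 mean of 2138 was the highest of the 50 in *A. cahirinus*, where the median was 129.7. What part of these reads is *Tpx2* was not tested.

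The cytokinesis genes were still called higher by posterior probability at D20 in *A. cahirinus*, apart from *Kif23*, and 2 fell at D20 in *M. musculus*. By limma all 3 recovered ones were higher at D20 in *A. cahirinus*, among them *Kif23*. Its libraries there held 553, 541 and 533 reads against 380, 405 and 440 at D0. All 5 were called higher at D5, D10 and D15 and 4 at D20 in the former (medians 1.596, 0.76, 0.83 and 0.81). In the latter 3 were called at D5 and D10, 0 at D15, and 2 were called lower at D20, with medians of 0.54, 0.41, 0.34 and -0.24. Among *M. musculus* features with a mean of at least 10, 18.9% were called higher at D15 and 17.0% lower at D20. *Anln*, the actin scaffold of the contractile ring, held 286, 274 and 200 reads at D0 in *A. cahirinus*, 969, 1026 and 916 at D5, 597, 593 and 559 at D10, 486 and 538 at D15 and 505, 479 and 456 at D20. Its *M. musculus* libraries held 499, 607 and 497 at D0, 527, 590 and 557 at D10, 621, 486 and 390 at D15 and 416, 422 and 404 at D20. The *M. musculus* libraries overlapped D0 at D10 and D15 and lay below it at D20 (-0.36, SE 0.0859, adjusted p = 0.00529), and the difference between species was 1.14 (SE 0.151) at D10 and 1.29 (SE 0.153, adjusted p = 1.08e-05) at D20.

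*Kif23*, the midbody motor, had means of 408, 928, 577, 545 and 542 in *A. cahirinus* against 278, 272, 261, 228 and 180 in *M. musculus*, where D20 was called lower (-0.63). Its *A. cahirinus* component also aligns over 594 bases to *Fam160a2*. *Ect2*, which activates RhoA at the cleavage site, held 324, 323 and 321 reads at D20 against 203, 173 and 179 at D0 in *A. cahirinus*, and 141, 147 and 132 against 122, 168 and 134 in *M. musculus*. *Prc1*, the midzone bundler, had means of 231, 585, 382, 354 and 335 and of 303, 439, 403, 384 and 256. *Kif20a*, which carries the passenger complex to the midzone, showed the largest rise of the role in both, 2.40 and 1.30 at D5, and 35.6% of its 31-base words lie opposite *Cdc23* in the mouse.

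**Figure D3:**
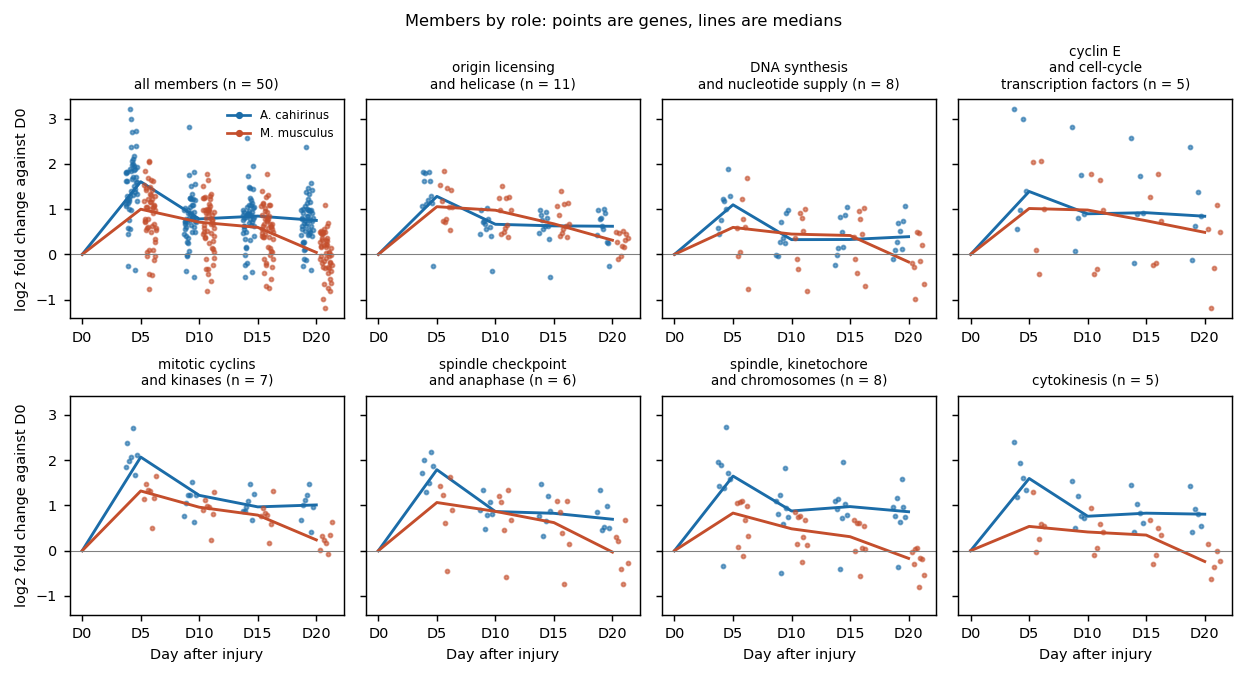
Log2 fold change against D0 by day for all 50 members and for each of the 7 roles, in *A. cahirinus* (blue) and *M. musculus* (red); points are genes and lines join the medians, starting from 0 at D0. The medians of all members were 1.61 and 0.9985 at D5 and 0.75 and 0.04 at D20, and at D20 the medians of 4 roles lay below 0 in *M. musculus*.

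The difference between species was tested with limma where both genes of a reciprocal pair had recovered reads, as the change against D0 in *A. cahirinus* less that in *M. musculus*. At D5, 10 of 18 members tested had a larger change in *A. cahirinus* and 1 a smaller one, beside 28.4% and 16.4% of 4546 pairs. At D10 the counts were 4 and 2 of 20 (16.7% and 17.6% of 3938 pairs), and at D15 4 and 2 of 27 (12.6% and 16.2% of 5122). At D20, 15 of 22 had a larger change in *A. cahirinus* and 0 a smaller one, beside 12% and 24.0% of 4461 pairs, and at an unadjusted p under 0.05 the counts were the same. The median difference of the tested members was 0.63, 0.10, 0.06 and 0.81 on the 4 days, where all pairs had 0.13, 0.00, -0.03 and -0.11.

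The median difference of the tested members was thus larger at D5 and D20 than on the days between, over partly different genes, and the change between days was not tested. *Ccnb1* went from a difference of 0.88 at D5 to -0.07 at D10, -0.08 at D15 and 0.69 at D20. *Mcm2* was the only tested member whose smaller change in *A. cahirinus* passed the test on more than 1 day, by -0.51 (SE 0.193) at D5, -0.84 (SE 0.168) at D10 and -0.65 (SE 0.189) at D15, with -0.10 (SE 0.167) at D20, which did not pass. *Gins1* had values below 0 on all 4 days, from -0.85 (SE 0.381) at D10 to -0.22 (SE 0.414) at D5, none of which passed. On the group means of all 50, which carry no test, the difference was above 0 for 43, 31, 34 and 45 members on the 4 days. Averaged over the 4 days it ranged from -1.12 (*Gins2*) to 1.84 (*Tyms*), with a median of 0.39. The order of the genes by their change at D5 was alike in part between the species (Pearson r = 0.44, Spearman rho = 0.51 across the 50 genes, which share their libraries). On the later days Pearson's r was 0.34, 0.28 and 0.33 and Spearman's rho 0.35, 0.29 and 0.29, and the change between days was not tested. Without *Tpx2* and *Gins2* r was 0.57, 0.43, 0.35 and 0.40 from D5 to D20. These 2 genes were picked because their values ran against the rest, so the higher r is no separate result.

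**Figure D4:**
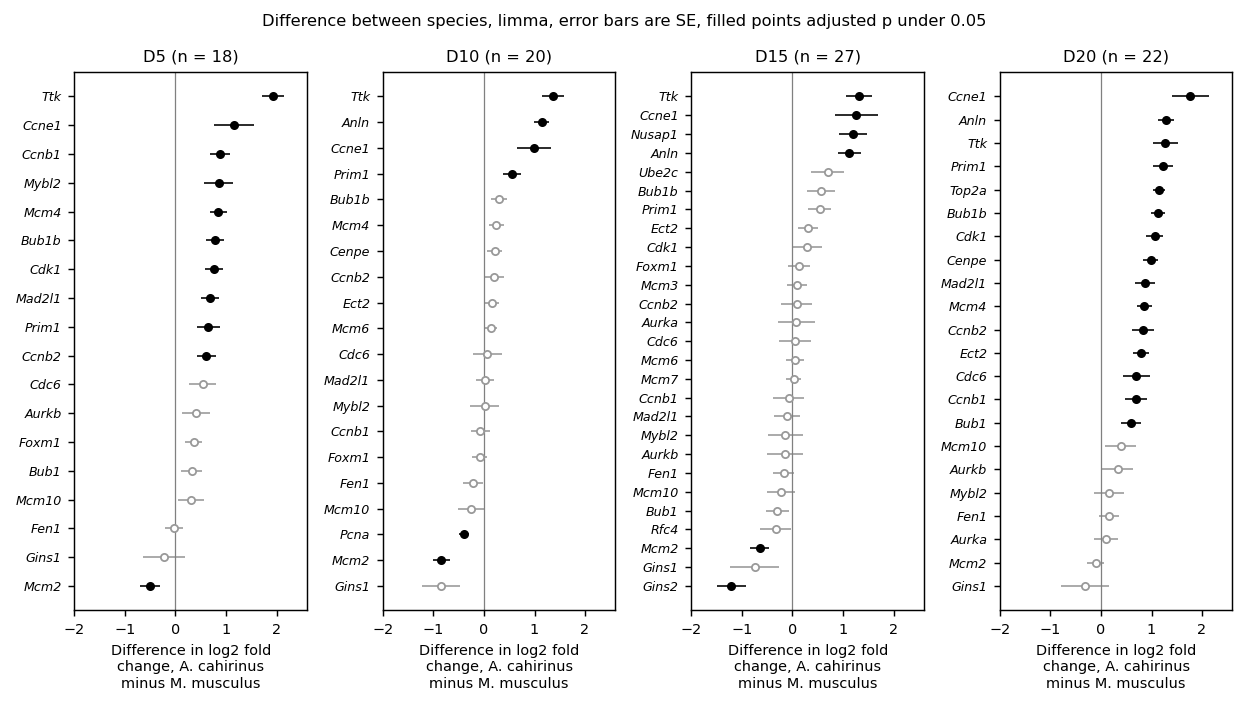
Difference between species in the change against D0 (log2, *A. cahirinus* minus *M. musculus*) for the members with recovered reads, ordered within each day, with SE as error bars; filled points have an adjusted p under 0.05 by limma. At D20, 15 of 22 are filled, all above 0, and at D10 and D15 there are 4 filled above 0 and 2 below.

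At D15 the members differed between libraries in a common order, and other groups had such an order in part. Whether all features share this order was not tested, so it may not be particular to the members. At D5 in *A. cahirinus* library 2 was the highest for 22 of 32 recovered members and library 3 the lowest for 23. At D0 library 1 was the highest for 30 of 50 in *A. cahirinus*, and library 2 for 31 of 50 in *M. musculus*. Of the 27 members recovered in *M. musculus* at D15, library 1 was the highest of the group for 25 and library 3 the lowest for 21, and the 3 libraries had median log2 ratios to the D0 mean of 0.97, 0.67 and 0.43. The numbers only name the libraries of a group and do not link groups. For *Ccnb1* this was the range from 270 to 150 reads given above, against 216 to 235 at D10. Without D0 library 1 of *M. musculus*, limma called 10 of 27 members higher at D15 in place of 19, and 2 at D20 in place of 4. In *A. cahirinus* at D15, the library that counts double in the deposited means was the higher one for 42 of 50 members.

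Other genes of the same processes were taken from further lists. Of 30 other replication genes (origin recognition, polymerase and chromatin assembly subunits and the like), 15, 3, 9 and 4 were called higher and 0 lower on the 4 days in *A. cahirinus*, and 13, 11, 8 and 1 higher in *M. musculus*, with 1 lower at D10. Among all features whose mean reached 10, the shares called higher on these days were 7.52%, 5.06%, 5.13% and 4.02% in *A. cahirinus* against 23.8%, 21.3%, 18.9% and 17.6% in *M. musculus*. The *M. musculus* count at D15 was near its share and the one at D20 under it. Their medians were 0.85, 0.36, 0.30 and 0.41 against 0.62, 0.44, 0.37 and 0.09. Of 37 other mitosis genes, 35, 27, 27 and 22 were called higher in *A. cahirinus* against 26, 23, 8 and 0 in *M. musculus*, where 1, 1, 1 and 3 were called lower. Against the same shares, the *M. musculus* count higher at D15 was again near that of all features and the one at D20 below. The counts lower there lay under the shares of such features called lower, 19.4%, 19.6%, 17.9% and 17.0% on the 4 days. Their medians were 1.55, 0.93, 0.93 and 0.86 against 0.93, 0.64, 0.54 and -0.03. The largest changes were those of *Chaf1b* (1.82 at D5, *A. cahirinus*), *Orc1* (1.72 at D5, *M. musculus*) and, in both species, *Cdca5* (2.57 and 1.79 at D5), which codes for sororin.

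Marker lists of the cell types in the ear shifted over the same days. The summed level of 8 leukocyte markers was 5200 at D0 and 18410, 9919, 7309 and 5915 on the later days in *A. cahirinus*, and that of the 7 found in *M. musculus* 1783, 6796, 4763, 4131 and 4180. Basal keratinocyte markers, such as *Krt5*, summed to 38510, 115200, 42970, 33110 and 30920 (7 genes) and to 54230, 118400, 60540, 48450 and 42480 (6 genes). The leukocyte genes rose one by one at D5, with 8 of 8 called higher in *A. cahirinus* and 7 of 7 in *M. musculus*. The keratinocyte sums rest on abundant keratins such as *Krt14*, which went from 15650 to 74460 at D5 in *M. musculus*. Gene by gene, 6 of 7 keratinocyte markers were called higher and 0 lower at D5 in *A. cahirinus* (median log2 fold change 1.04), whereas in *M. musculus* 2 of 6 were higher and 3 lower (median -0.14). Of all features with a mean of at least 10, 7.52% and 4.09% were called higher and lower at D5 in *A. cahirinus*. The shares were 23.8% and 19.4% in *M. musculus*. Fibroblast markers were highest at D15, going from 36380 to 39870, 197400, 274800 and 220200 in *A. cahirinus* (8 genes) and from 47690 to 225800, 463800, 502400 and 494300 in *M. musculus* (7 genes).

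The summed hair matrix and shaft markers went from 8932 to 2946, 3721, 3722 and 4771 in *A. cahirinus* and from 666 to 449, 2783, 7644 and 9221 in *M. musculus*, with 7 genes each. The *M. musculus* sum at D20 is mostly *Krt71*, which went from 34.87 to 8094, and the median D20 change over the list was above 0 in both species (0.32 and 0.64). Endothelial markers summed to 4297, 4116, 4380, 3758 and 2790 in *A. cahirinus* and to 1451, 3375, 2579, 2487 and 2501 in *M. musculus*, and cartilage markers to 6676, 4389, 7251, 6648 and 5131 (5 genes) and to 5281, 3006, 4875, 4873 and 5810 (6 genes). The *A. cahirinus* cartilage sum at D10 ran against most of its list: *Col2a1* went from 684 to 3758, while the median change was -0.75 with 1 of 5 called higher and 2 lower. Of *A. cahirinus* features with a mean of at least 10, 5.06% were called higher and 3.37% lower at D10. Skeletal muscle markers went from 85220 to 26270 at D20 in *A. cahirinus*, with 38670 and 4118 in *M. musculus* (6 genes each). Most of the *A. cahirinus* sum at D20 was *Acta1* (20580 at D0 and 20220 at D20, no call), whereas the other 5 markers were called lower and the median change was -3.34. The defining markers found were above 0 in every group, apart from *Matn1* of cartilage, which was at 0 in at least 1 group of *M. musculus*. The sum of 8 reference transcripts was 13920, 22700, 16070, 14290 and 12900 in *A. cahirinus* against 12240, 17580, 14140, 13260 and 11130 in *M. musculus*, and *Gusb* rose by 1.46 and 1.51 at D5. The part of these shifts in the members' courses was not tested.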

How the data were processed

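RNA from ear tissue of 2 species was sequenced at 5 times with 3 animals per group. The authors assembled *A. cahirinus* transcripts with Trinity, counted reads with RSEM and Bowtie (for *M. musculus* on mm10 genes, which the labels name too), and compared each later day with D0 in EBSeq. The deposited tables hold, per feature, posterior probabilities (a fraction from 0 to 1) and the ratio of D0 to the later day in 2 forms. These are the authors' own comparisons; they are used since the processed files analysed here give expression in no other form. A second kind of deposited file, the sequences and their hits (percent identity, bit score and positions, among other fields), was used to name the features. Known *M. musculus* gene numbers came from the study's supplementary data.

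From both ratios the group means were solved exactly, and from the means the reads of single libraries. At D0, 98.3% of *M. musculus* and 99.8% of *A. cahirinus* features lay on a grid of 0.01 reads in all 4 tables; on later days 48.0% to 54.7% and 88.8% to 91.6% were recovered, more often those with low counts. Size factors spanned 0.72 to 1.68 and 0.70 to 1.35. Library numbers are only names, and no label ties them to animals. The *A. cahirinus* D15 group gave 2 distinct libraries.

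*M. musculus* gene numbers were placed on reference transcripts by their order, between known numbers, at a probability of at least 0.9. The transcripts were given gene symbols by sequence with minimap2 2.31, and *A. cahirinus* components were chosen by top bit score below 99% identity. When known numbers were held out, 99.6% of those placed were right, and 123 of 1992 were not placed. Calls use a posterior probability of at least 0.95. Recovered reads of features with a mean of at least 10 were tested with limma 3.58.1 (voom weights, R 4.3.3, Benjamini-Hochberg adjustment over all features tested), each day against D0 and, over reciprocal pairs, as the difference between species. A count model had been planned for values per animal; limma was used since the deposited unit is a ratio. Python 3.11.15, NumPy 2.4.6, pandas 2.3.3, SciPy 1.17.1, numba 0.67.0 and matplotlib 3.10.9 were used. The recovery and the limma step were tested on simulated data. The members and all lists were chosen with earlier results of these data known.

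Named with all group means, or with all libraries of every group, were 10 preset genes; also named were the members with the highest and lowest difference between species in each role, every member called lower or in no comparison, and the largest change of each further list. Genes beyond this rule were named after their values were seen. Alternatives covered the threshold, least fold, low values, ratio column, pseudocount, centring and component choice, and, chosen after seeing the data, limma, libraries left out and D15 left out. Promoter and protein sequences were not used here.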

Additional observations from a re-analysis of the deposited data

Results flagged for a closer look

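The change against D0 differed between the species by limma's test of the difference itself (adjusted p below 0.05) in 38 cases over 20 genes, 33 of them larger in *A. cahirinus* and 5 smaller. The larger ones were 10 of 18 members tested at D5, 4 of 20 at D10, 4 of 27 at D15 and 15 of 22 at D20, beside 28.4%, 16.7%, 12.6% and 12% of all pairs tested, so the counts at D10 and D15 were close to the share of all pairs. The smaller ones were 1, 2, 2 and 0, beside 16.4%, 17.6%, 16.2% and 24% of all pairs. The values are log2 fold changes in *A. cahirinus* minus those in *M. musculus*.

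At D5 the larger changes in *A. cahirinus* were 1.93 for *Ttk*, 1.16 for *Ccne1*, 0.88 for *Ccnb1*, 0.85 for *Mybl2*, 0.85 for *Mcm4*, 0.79 for *Bub1b*, 0.76 for *Cdk1*, 0.68 for *Mad2l1*, 0.65 for *Prim1* and 0.61 for *Ccnb2*, and the smaller one was -0.51 for *Mcm2*. At D10 they were 1.36 for *Ttk*, 1.14 for *Anln*, 0.99 for *Ccne1* and 0.56 for *Prim1*, and the smaller ones -0.40 for *Pcna* and -0.84 for *Mcm2*.

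At D15, where *A. cahirinus* had 2 libraries, the difference was 1.31 for *Ttk*, 1.26 for *Ccne1*, 1.197 for *Nusap1* and 1.12 for *Anln*, and it was -0.65 for *Mcm2* and -1.21 for *Gins2*. At D20 it was 1.77 for *Ccne1*, 1.29 for *Anln*, 1.27 for *Ttk*, 1.22 for *Prim1*, 1.15 for *Top2a*, 1.13 for *Bub1b*, 1.06 for *Cdk1*, 0.98 for *Cenpe*, 0.88 for *Mad2l1*, 0.86 for *Mcm4*, 0.82 for *Ccnb2*, 0.80 for *Ect2*, 0.70 for *Cdc6*, 0.69 for *Ccnb1* and 0.60 for *Bub1*. *Ccne1* and *Ttk* passed on all 4 days, and *Anln*, *Prim1* and *Mcm2* on 3 each. The *A. cahirinus* component of *Mcm2* also aligns to *Mcm4*, and its part in the *Mcm2* values was not tested.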

How the results depend on the processing

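No paired analysis was possible because the deposited columns and the labels carry no replicate numbers. A filter on a mean of at least 10 could remove no member, since all 50 lay above 10 at D0. Dropping the identity limit, reciprocal hits, the other ratio column, a pseudocount of 1 and centring left all counts within 1.5 times. Under these settings all medians and named changes stayed within the replicate spread. At a posterior probability of at least 0.99, 1 member was called lower at D10 in *A. cahirinus* and at D5 in *M. musculus*, and 1 higher at D20 in *M. musculus*. With a log2 fold change of at least 1 as well, 14, 14 and 10 members were higher at D10, D15 and D20 in *A. cahirinus* and 0 lower on any day; in *M. musculus* 11, 9 and 0 were higher on those days, 0 lower at D5, D10 and D15, and 1 lower at D20. With all components of a gene summed, the median of the mitotic cyclins and kinases at D10 in *A. cahirinus* was 1.052, 1 member had its highest mean at D15, and *Birc5* at D20 turned to -0.00795, while the other changes of *Birc5* and those of *Plk1*, 7 in all, moved by more than the replicate spread.

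By limma, leaving out 1 library at a time gave 32 to 32, 28 to 29, 36 to 41 and 27 to 32 members higher on the 4 days in *A. cahirinus* and 0 to 0, 0 to 0, 2 to 3 and 0 to 0 lower. In *M. musculus* it gave 23 to 24, 20 to 22, 10 to 19 and 2 to 6 higher and 0 to 1, 1 to 1, 1 to 2 and 5 to 6 lower. The count of 0 lower at D5 came without D0 library 2, those of 10 higher at D15 and 2 higher at D20 without D0 library 1, and that of 2 lower at D15 without D15 library 1. By posterior probability over the same members, 1 was lower at D15 and 20 higher at D20 in *A. cahirinus*, against 11 and 2 higher on those days in *M. musculus*. The cause of these moves was not tested beyond the smaller number of samples. Reads on later days were recovered mainly for lower counts, which limits the tests to those genes.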
